A study of Homo sapiens with 6 samples.

Results

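The genes described here are 10 surface proteins through which a tumour cell is seen or spared by natural killer (NK) cells, T cells and macrophages: MICA, MICB, ULBP1, ULBP2, ULBP3, PVR, ICAM1, CD274, CD47 and CD83. All probe sets whose annotation gives 1 of these symbols and no other were taken, which gave 31 of the 49372 probe sets of the array and 10 of the 18132 genes that could be tested. The list was drawn up by gene name, not by measured values, but with earlier results of these data in view. RNA was measured on 6 one-colour arrays of A549, an established human lung adenocarcinoma cell line. There were 3 knockdown arrays, from cells treated with small interfering RNA against the long noncoding RNA LINC00525, and 3 control arrays, from cells given a scrambled sequence. All cells were grown in the same serum-containing medium. Titles call both groups "sh", LINC00526 and LINC00527 stand in the genotype entries for knockdown replicates 2 and 3, and no label says whether replicates are separate cultures, so p-values here measure the spread between arrays, which may be technical.

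MICA, MICB and the ULBP proteins are stress-induced relatives of MHC class I that bind NKG2D, an activating receptor of NK cells and cytotoxic T cells. PVR (CD155) binds the activating receptor DNAM-1 and the inhibitory receptor TIGIT, and ICAM1 (CD54) binds the integrin LFA-1, which holds a lymphocyte to its target. CD274 (PD-L1) restrains T cells through PD-1, and CD47 restrains phagocytosis through SIRP-alpha. CD83 is best known as a surface marker of mature dendritic cells. In carcinoma cells NKG2D ligands can be cut from the surface by ADAM proteases, while ICAM1 and CD274 are textbook targets of interferon and NF-kB signalling.

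Upstream bases are shown for ICAM1, which had the largest change of the 10, and for CD274, in which the most kinds of response motif were found. Each is the 250 bases before the RefSeq start of the gene (GRCh38.p14, 5′ to 3′ on the gene's strand). Capitals mark matches to 3 patterns: GGNNNTTCC for NF-kB, TTCNNNGAA for the STAT element GAS, and GAAA repeated after any 2 bases for the interferon element ISRE, each read on both strands.
ICAM1, chr19:10270870-10271119, plus strand: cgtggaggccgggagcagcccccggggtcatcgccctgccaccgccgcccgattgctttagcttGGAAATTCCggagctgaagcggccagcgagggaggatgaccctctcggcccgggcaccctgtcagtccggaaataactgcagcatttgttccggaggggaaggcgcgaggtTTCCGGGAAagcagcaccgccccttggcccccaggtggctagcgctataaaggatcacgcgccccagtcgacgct
CD274, chr9:5450292-5450541, plus strand: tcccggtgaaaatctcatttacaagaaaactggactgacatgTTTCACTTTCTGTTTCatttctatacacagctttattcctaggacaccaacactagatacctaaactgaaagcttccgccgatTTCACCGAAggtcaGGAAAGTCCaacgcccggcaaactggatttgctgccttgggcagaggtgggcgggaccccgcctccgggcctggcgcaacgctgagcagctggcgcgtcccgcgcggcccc
All 10 genes had an upstream window in the RefSeq table; MICA, MICB, ULBP1, ULBP2, ULBP3 and CD83 lie on chromosome 6, PVR and ICAM1 on 19, CD274 on 9 and CD47 on 3. The NF-kB pattern was found in 2 of them, ICAM1 (GGAAATTCC, beginning 186 bases before the start) and CD274 (GGAAAGTCC, 111 bases before), and in 17.1% of 35116 promoters of the same length. The GAS pattern was in the same genes, as TTCCGGGAA 75 bases before the ICAM1 start and TTCACCGAA 125 bases before the CD274 start, against 6.57% of promoters. The ISRE pattern was in CD274 alone, in 2 overlapping copies (TTTCACTTTC and TTTCTGTTTC, 208 and 202 bases before the start), against 3.02% of promoters. The heat shock pattern HSE (GAANNTTC) was in MICA, MICB and CD83, each as GAATTTTC, against 5.78% of promoters. The windows of MICA (chr6:31403345-31403594) and MICB (chr6:31497895-31498144) lie inside the annotated genes, whose outermost starts are at 31400711 and 31494918, so they precede an internal start. The AP-1 pattern TGANTCA was in 0 of the 10, against 6.57% of promoters. The MICA and MICB windows were identical at 82.7% of 254 aligned columns, and the pairs among ULBP1, ULBP2 and ULBP3 at 44% to 49.5%. A match is a description of the letters in this window and not a measurement of binding.

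The targeted transcript was near background, with 1 of 17 Tag control probe sets, which are made to match no human RNA, above its control mean. LINC00525 was at 3.67, 3.45 and 3.54 log2 units on the knockdown arrays and 3.86, 3.74 and 3.97 on the control arrays (log2 change -0.30 ± 0.075 SE, limma adjusted p = 0.0372 over all genes; exact permutation p = 0.1, the smallest that 3 arrays against 3 can give). That call was lost without control replicate 1 (adjusted p = 0.10), control replicate 3 (0.109), knockdown replicate 2 (0.111) or knockdown replicate 3 (0.0960). CDKN1A, the p21 gene of the series' title, had a log2 change of 0.55 ± 0.055 SE (limma adjusted p = 0.000891). Bacterial hybridization controls read higher on the knockdown arrays (9.45 to 9.54, against 9.10 to 9.30 on control arrays), and whether the typical gene itself moved was not tested, so a change below means a change against the typical gene on that array. Epithelial markers averaged 9.35 to 9.41 log2 units on knockdown and 9.41 to 9.42 on control arrays, and the epithelial keratin KRT18 averaged 12.42 on knockdown and 12.45 on control arrays. Of the 7 epithelial markers KRT19 rose by 0.29 and KRT8 fell by 0.15. Of 17 measured leukocyte markers 2 rose and 0 fell, CD68 by 0.61 and LAMP3 by 0.79 log2 units, and their part in the results was not tested. Of all genes 5.77% rose and 6.83% fell, 12.6% together, and so few calls say little about either marker list. LAMP3 was near background, with 5 of the 17 Tag probe sets above its control mean, and its second probe set gave -0.02. The leukocyte list averaged 4.12 to 4.23 on knockdown and 4.07 to 4.13 on control arrays. Of the 17 markers, 5 had control means above all 17 Tag probe sets: CD3E, CD14, CD68, NCR1 and ITGAX. The monocyte marker CD14 averaged 6.19 on knockdown and 6.25 on control arrays and did not pass. Chosen after its values were seen, the pan-leukocyte gene PTPRC averaged 2.44 on knockdown and 2.32 on control arrays, with 16 of the Tag probe sets above its control mean.

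Of the 10 genes, 5 were higher on the knockdown arrays and 1 was lower. ICAM1 rose 1.48-fold and ULBP2 1.33-fold, MICB, CD47 and CD274 rose by less, PVR fell, and MICA, ULBP1, ULBP3 and CD83 did not pass the test. In bulk RNA a change in how many cells carry a transcript and a change per cell cannot be told apart. Past the threshold (limma adjusted p under 0.05) were 5.77% of all 18132 genes as rises and 6.83% as falls, 12.6% together. The groups did not overlap for 7 of the 10 genes, 6 of them with the knockdown arrays above, while 30.8% of all genes had groups that did not overlap. The median log2 change was 0.17 for the 10 genes and -0.01 for all genes. At the probe set that stands for each gene, 0 of the 10 reached 1.5-fold. That size was passed with a limma adjusted p under 0.05 by 0.833% of all genes, so the count of 0 says little about these 10. The median absolute log2 change was 0.20 for the 10 genes and 0.067 for all genes. Without control replicate 2 or control replicate 3, 3 of the 10 rose (ULBP2, ICAM1 and CD47).

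**Figure D1:**
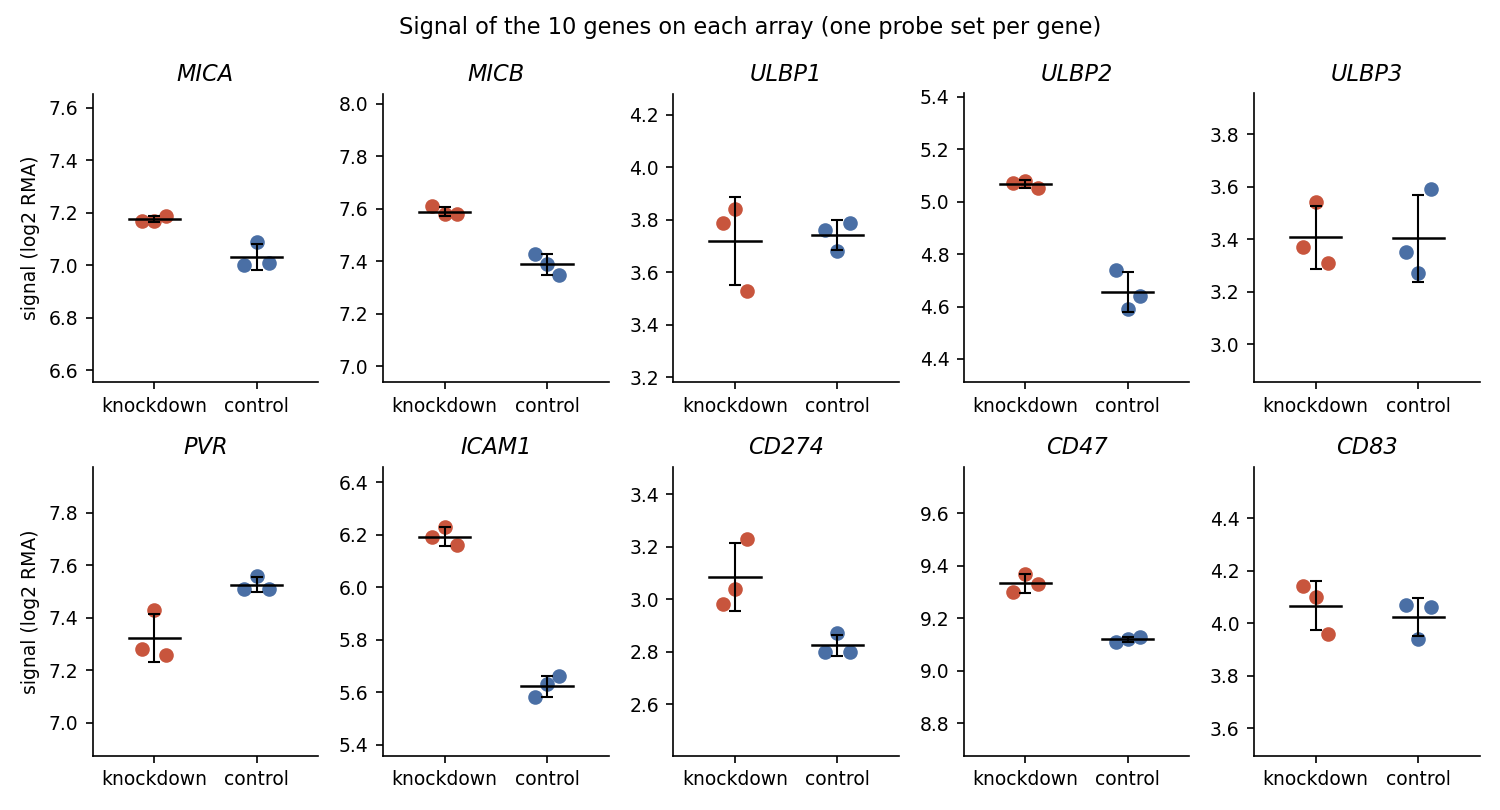
Log2 RMA signal (vertical axis, each panel spanning the same 1.1 log2 units) of the 10 genes on the 3 knockdown arrays (left, red) and 3 control arrays (right, blue). Points are arrays, long bars are means and whiskers are SD; the groups are apart for MICA, MICB, ULBP2, PVR, ICAM1, CD274 and CD47 and overlap for ULBP1, ULBP3 and CD83.

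Among the NKG2D ligands the change was found in ULBP2 and MICB. ULBP2, a GPI-anchored ligand, had a signal of 5.07, 5.08 and 5.05 log2 units on the knockdown arrays and 4.74, 4.59 and 4.64 on the control arrays. Its control mean of 4.66 lay just above the highest of the 17 Tag control probe sets, at 4.60, so it was near background there. The lowest knockdown array lay 0.31 log2 units above the highest control array, a gap wider than the range of either group. The log2 change was 0.41 ± 0.047 SE (95% interval 0.30 to 0.52, limma adjusted p = 0.00188). ULBP2 has 2 further probe sets, at 2.16 to 2.35 on the knockdown arrays and 2.07 to 2.23 on the control arrays. Their control means lay below all 17 Tag control probe sets, so they gave no usable reading, and their log2 changes of 0.08 and 0.13 did not pass the test. The ULBP2 call therefore rested on 1 probe set, which carries the suffix _x_at, a mark of probes that can also bind related transcripts.

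MICB, a transmembrane ligand, had 7.61, 7.58 and 7.58 log2 units on the knockdown arrays and 7.43, 7.39 and 7.35 on the control arrays. The groups did not overlap, and they spanned 0.03 and 0.08 log2 units. MICB rose by 0.20 ± 0.038 log2 units (SE, limma adjusted p = 0.0159), and the call was lost without control replicate 2 (adjusted p = 0.0593) or control replicate 3 (0.0562). All 4 of its probe sets had a positive change, of 0.09 to 0.27, and 2 of the 4 passed when adjusted over all 49293 probe sets tested, both with the suffix _x_at. The brightest probe set without that suffix gave 0.27 ± 0.074 (SE, limma adjusted p = 0.0568 over all probe sets).

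MICA, the paralog of MICB, had a log2 signal of 7.17, 7.17 and 7.19 on knockdown arrays and 7.0, 7.09 and 7.01 on control arrays. Every knockdown array lay above every control array, by 0.08 at the closest. The log2 change of 0.14 ± 0.040 SE just missed the threshold (95% interval 0.05 to 0.24, limma adjusted p = 0.0563). It was past it in 3 of 15 alternatives, after cyclic loess (0.17, adjusted p = 0.0275), after dim probe sets were left out (adjusted p = 0.0228) and with trend and robust variance moderation (adjusted p = 0.0244). It was at -0.14 scaled to hybridization controls and 0.0024 scaled to poly-A controls, without passing in either. The 3 MICA probe sets all had positive changes, of 0.14 to 0.17, and all carry _s_at or _x_at suffixes, so the signals of MICA and MICB may not be separable. The difference in change between MICA and MICB was not tested.

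ULBP1 and ULBP3, the other NKG2D ligands of the set, lay close to background. ULBP1 was at 3.79, 3.84 and 3.53 log2 units on knockdown arrays and 3.76, 3.68 and 3.79 on control arrays, and 1 of the 17 Tag probe sets had a higher control mean. The groups overlapped, and the log2 change was -0.02 ± 0.081 SE (95% interval -0.21 to 0.16, limma adjusted p = 0.890). Its 2 dimmer probe sets read lower on each knockdown array than on any control array (log2 changes of -0.20 and -0.14, with limma adjusted p over all probe sets of 0.0707 and 0.110). ULBP3 was at 3.37, 3.54 and 3.31 on knockdown arrays and 3.35, 3.27 and 3.59 on control arrays, with a log2 change of 0.00 ± 0.092 SE (95% interval -0.21 to 0.22, limma adjusted p = 0.987). Control replicate 3 held the highest ULBP3 value of all 6 arrays. The ULBP3 interval includes changes as large as that of MICB in either direction, and the ULBP1 interval includes a fall of that size.

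PVR, the DNAM-1 and TIGIT ligand, had the only fall of the 10 in this fit, and its probe sets did not move together. The brightest was at 7.28, 7.43 and 7.26 log2 units on knockdown arrays and 7.51, 7.56 and 7.51 on control arrays. The groups did not overlap, with knockdown replicate 2 nearest to the controls. PVR so measured fell by 0.20 ± 0.053 log2 units, 1.15-fold (SE, limma adjusted p = 0.0447 over all genes). With the adjustment over all probe sets the same values gave an adjusted p of 0.0560. Leaving out any 1 array but knockdown replicate 2 lost the call, with adjusted p = 0.119 without knockdown replicate 1, 0.119 without knockdown replicate 3, and 0.0998, 0.141 and 0.102 without control replicates 1, 2 and 3. This probe set has the suffix _x_at.

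The next PVR probe set in brightness went the other way. It had 7.21, 7.24 and 7.28 log2 units on the knockdown arrays and 7.13, 7.05 and 7.11 on the control arrays, again without overlap (log2 change 0.15 ± 0.044 SE, limma adjusted p = 0.0790 over all probe sets). The remaining 2 gave 0.03 ± 0.062 and -0.07 ± 0.10 (SE) and had overlapping groups. With the 4 probe sets averaged, PVR was at -0.02 (limma adjusted p = 0.802). The direction of PVR as a gene therefore depends on which probe set is read.

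ICAM1, the LFA-1 ligand, had the largest change of the 10. Its signal was 6.19, 6.23 and 6.16 log2 units on the knockdown arrays and 5.58, 5.63 and 5.66 on the control arrays. The groups were 0.50 log2 units apart at their closest, and neither spanned more than 0.08. ICAM1 rose by 0.57 ± 0.041 log2 units (SE, 95% interval 0.48 to 0.66, limma adjusted p = 0.000175). The other ICAM1 probe sets pointed the same way. The dimmest, with 1 of the 17 Tag probe sets above its control mean, had 4.95, 5.10 and 4.76 on knockdown arrays and 4.15, 4.30 and 4.02 on control arrays, a rise of 0.78 ± 0.097 (SE, limma adjusted p = 0.00277 over all probe sets). The third had 5.08, 5.15 and 5.10 on knockdown arrays and 4.70, 4.92 and 4.39 on control arrays, a log2 change of 0.44 ± 0.12 SE (limma adjusted p = 0.0511 over all probe sets). In that probe set the control arrays spread over 0.53 log2 units, and control replicate 2 lay nearest to the knockdown arrays. Without control replicate 2 it was past the threshold at 0.57 (adjusted p = 0.0220). It was at 0.30 without control replicate 3 (adjusted p = 0.0681), and without each of the other 4 arrays it did not pass either (adjusted p = 0.106 to 0.137). None of the 3 carries an _s_at or _x_at suffix.

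CD274, which encodes PD-L1, was close to background in A549. Its brightest probe set over all 6 arrays had 2.98, 3.04 and 3.23 log2 units on knockdown and 2.80, 2.87 and 2.80 on control arrays. On control arrays 6 of the 17 Tag probe sets had a higher mean. The groups did not overlap, and knockdown replicate 3 stood above the others. CD274 rose by 0.26 ± 0.066 log2 units (SE, limma adjusted p = 0.0421). That call held without knockdown replicate 1 (adjusted p = 0.0355) but was lost without each of the other 5 arrays: adjusted p = 0.0838 and 0.0599 without knockdown replicates 2 and 3, and 0.119, 0.0888 and 0.123 without control replicates 1, 2 and 3. Without knockdown replicate 3 the log2 change was 0.19. The other 3 CD274 probe sets had control means of 2.42 to 2.88, had overlapping groups, and gave 0.16, -0.05 and -0.02, none past the threshold. The probe set at -0.05 was the brightest on control arrays, with a mean of 2.88 against 2.82 for the probe set that stands for CD274. The latter was chosen through its higher knockdown values, so the CD274 rise depends on that choice. With its 4 probe sets averaged, CD274 was at 0.09 (adjusted p = 0.304).

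CD47, the ligand of SIRP-alpha on macrophages, was at 9.30, 9.37 and 9.33 log2 units on the knockdown arrays and 9.11, 9.12 and 9.13 on the control arrays. The groups lay 0.17 apart, against a control range of 0.02. CD47 rose by 0.21 ± 0.037 log2 units (SE, 95% interval 0.13 to 0.30, limma adjusted p = 0.0107). Its 3 probe sets gave similar changes, 0.18, 0.21 and 0.23, although the 2 dimmer ones had overlapping groups and did not pass (limma, over all probe sets: adjusted p = 0.128 and 0.178). In both of those, control replicate 3 read within the range of the knockdown arrays.

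CD83 had 1 probe set, with 4.14, 4.10 and 3.96 log2 units on knockdown arrays and 4.07, 3.94 and 4.06 on control arrays. The groups overlapped. The log2 change was 0.04 ± 0.060 SE (95% interval -0.10 to 0.18, limma adjusted p = 0.713), and 1 of the 17 Tag probe sets lay above its control mean.

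Read by probe set, 7 of the 31 rose and 0 fell, against 4.59% rises and 5.25% falls among all 49293 probe sets (limma adjusted p under 0.05 over these; 17 of the 31 had an unadjusted p under 0.05). The 7 belong to MICB, ULBP2, ICAM1, CD274 and CD47. The change was positive for 22 and negative for 9, and the 9 came from ULBP1, ULBP3, PVR and CD274. The groups did not overlap for 15 of the 31, against 28.6% of all probe sets, with the knockdown arrays above for 12 and below for 3. Probe sets of 1 gene share their RNA and are not replicates. The count of 7 was 3 without knockdown replicate 2, 4 without knockdown replicate 3 or control replicate 2, and 5 without each other array.

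**Figure D2:**
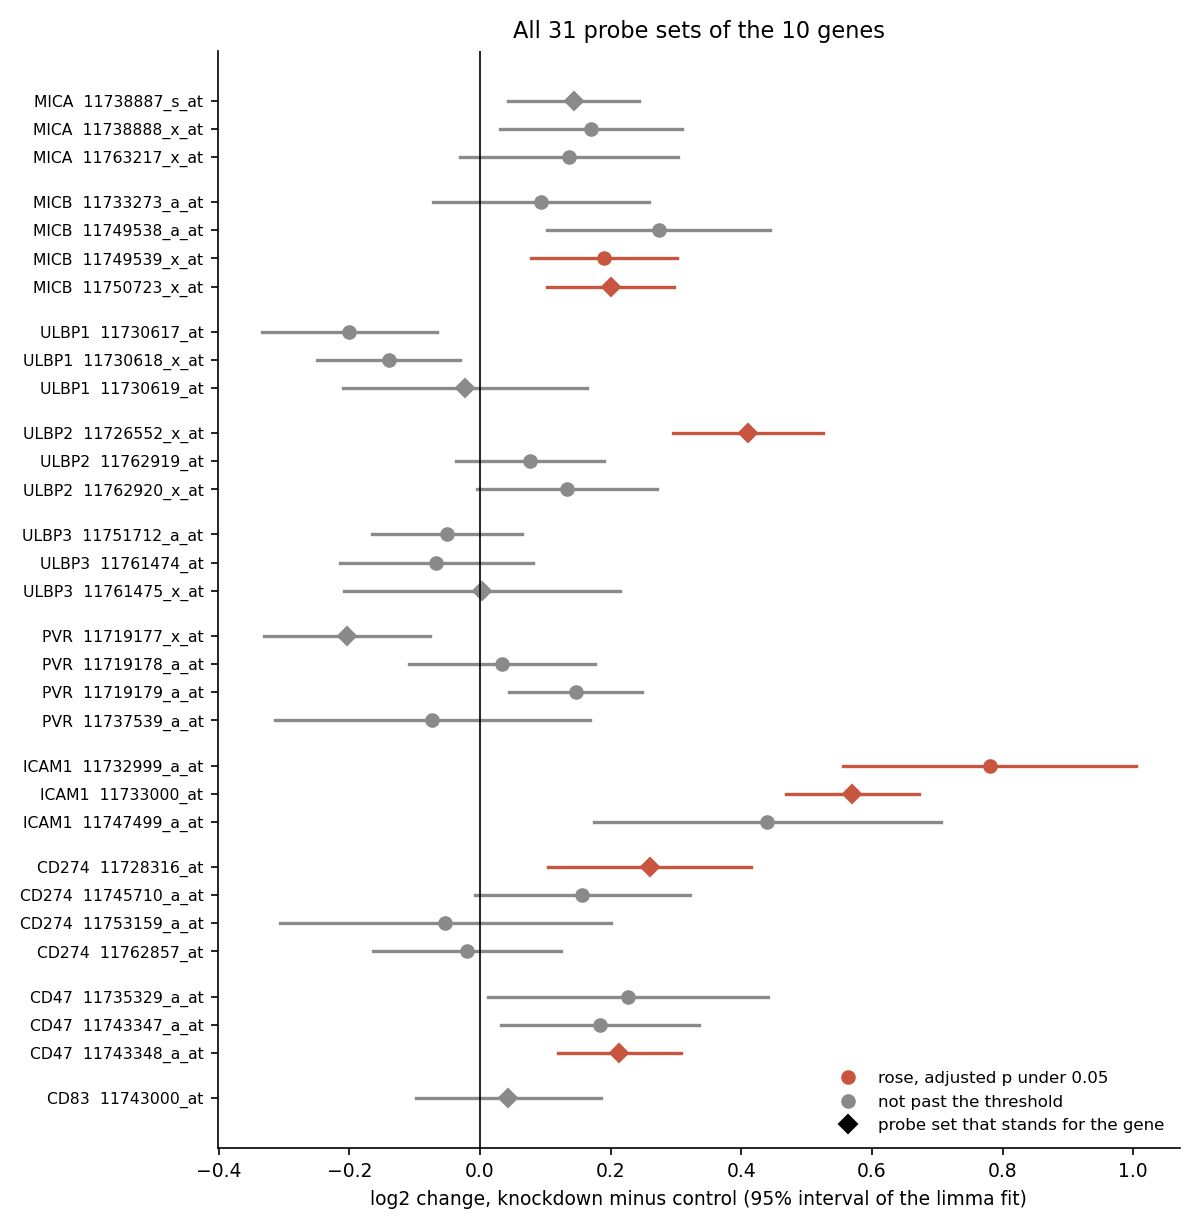
Log2 change, knockdown minus control (horizontal axis), with its 95% interval for each of the 31 probe sets, grouped by gene. Red marks the 7 that rose past the threshold over all probe sets, grey the other 24, and diamonds the probe set that stands for the gene; the 3 ICAM1 probe sets lie at 0.44 to 0.78, and those of PVR fall on both sides of 0.

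The profile of ICAM1 over the 6 arrays was most like those of HERC6 (Pearson r = 0.9995), TES (0.999) and NAV3 (0.9987), and that of PVR most like those of CENPP (0.9949), CDC123 (0.9947) and ERF (0.9931). With 6 arrays in 2 groups such values mostly describe the contrast between the groups, and they are given as a description.

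The wider set of genes around these 10 did not move as one. Of 83 measured genes in 6 related lists 13 rose, 8 fell and 62 did not pass, so 25.3% were called, against 12.6% of all genes, and the median log2 change was 0.03, against -0.01. These lists were written with earlier results in view. Falls numbered 4 and 5 without knockdown replicates 2 and 3, and 3, 2 and 5 without control replicates 1, 2 and 3. The other NKG2D ligands RAET1E, RAET1G and RAET1L gave 0 calls of 3, with RAET1G at 0.05 ± 0.042 log2 units (SE, limma adjusted p = 0.486). The other two, named to complete the list after their values were seen, had log2 changes of -0.04 (RAET1E) and -0.03 (RAET1L), each with 5 Tag probe sets above its control mean.

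Among 10 measured other ligands of activating or adhesion receptors, 2 rose and 1 fell (median -0.03). Of all genes 5.77% rose and 6.83% fell, and so few calls say little about this list. CLEC2B, the ligand of NKp80, was at 5.85, 5.77 and 5.70 log2 units on knockdown and 5.26, 5.34 and 5.34 on control arrays, a rise of 0.46 ± 0.050 (SE, limma adjusted p = 0.00148). Its second probe set gave 0.04 and did not pass. NECTIN2, which shares DNAM-1 with PVR, was at 8.62, 8.68 and 8.68 on knockdown and 8.35, 8.23 and 8.34 on control arrays, a rise of 0.35 ± 0.046 (adjusted p = 0.00336). The second NECTIN2 probe set rose as well, by 0.29. Both groups of NECTIN2 values stood clear of each other. CD58, the adhesion ligand of CD2, was at 7.63, 7.63 and 7.65 on knockdown and 7.87, 7.84 and 7.80 on control arrays, a fall of 0.20 ± 0.037 (adjusted p = 0.0140). CD58 has 6 probe sets, of which 1 fell and the changes ran from -0.20 to 0.08, and its call was lost without knockdown replicate 2 (adjusted p = 0.0503), control replicate 1 (0.0513) or control replicate 2 (0.0555). BAG6, a ligand of NKp30, had a log2 change of -0.07 ± 0.034 SE and did not pass (adjusted p = 0.226).

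Of 25 measured other inhibitory, co-signalling and complement-regulating surface genes 2 rose and 2 fell (median 0.04). CD55, which speeds the decay of complement convertases, had 9.56, 9.54 and 9.56 log2 units on knockdown and 8.96, 9.01 and 9.03 on control arrays, a rise of 0.55 ± 0.037 (SE, limma adjusted p = 0.000140), and all 7 of its probe sets rose, by 0.30 to 0.74. CD40, the TNF receptor that binds CD40 ligand on T cells, had 5.83, 5.85 and 5.81 on knockdown and 5.43, 5.34 and 5.35 on control arrays, a rise of 0.46 ± 0.040 (adjusted p = 0.000534). For both genes the groups lay far apart relative to their spread at these probe sets. The second CD40 probe set gave 0.24 and did not pass (limma adjusted p = 0.0716 over all probe sets). CD24, the Siglec-10 ligand that, like CD47, restrains macrophages, had 10.90, 10.92 and 10.87 on knockdown and 11.13, 11.22 and 11.20 on control arrays, a fall of 0.29 ± 0.041 (adjusted p = 0.00467). CD24 was read by 1 probe set, which carries the suffix _s_at. CD46, another complement regulator, fell by 0.22 ± 0.040 at its brightest probe set, but 1 of its 12 probe sets fell and the others did not pass (-0.22 to 0.11 over all 12), and its call was lost without control replicate 2 (adjusted p = 0.0555). LGALS3, a galectin that binds LAG3, had a log2 change of 0.11 ± 0.045 SE and did not pass (adjusted p = 0.170). With probe sets averaged, CD46 was at -0.0086 (limma adjusted p = 0.920). Among all genes 5.77% rose and 6.83% fell, 12.6% together. No kind of gene can be read from so few calls in this list. The B7 family member CD276 and the PD-1 ligand PDCD1LG2 were chosen after their values were seen. They gave 0.09 and 0.12 without passing (limma adjusted p = 0.285 and 0.260). PDCD1LG2 was near background, with 5 of the 17 Tag probe sets above its control mean.

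**Figure D3:**
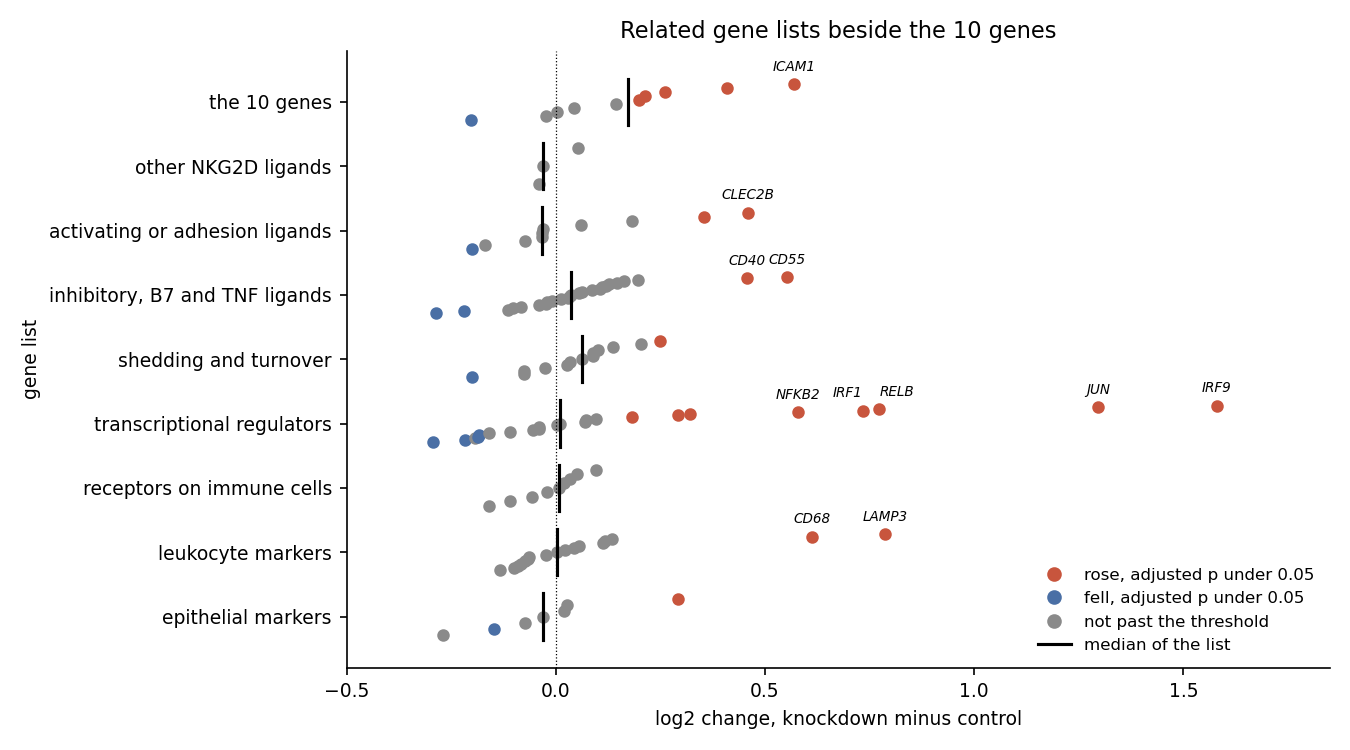
Log2 change, knockdown minus control (horizontal axis), of the 10 genes and of the measured genes of each related or marker list (vertical axis). Red points rose, blue points fell, grey points did not pass, and black bars are list medians; the widest spread, with IRF9 at 1.58, is among transcriptional regulators, and the medians of the other lists lie between -0.03 and 0.06, against 0.17 for the 10 genes.

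Of 13 measured genes for shedding, folding and turnover of these proteins 1 rose and 1 fell (median 0.06). Of all genes 5.77% rose and 6.83% fell, so these calls say little about the list. ADAM17, a protease that sheds NKG2D ligands, had 8.51, 8.53 and 8.49 log2 units on knockdown and 8.18, 8.26 and 8.34 on control arrays, a rise of 0.25 ± 0.048 (SE, limma adjusted p = 0.0163), and 2 of its 4 probe sets rose. The ADAM17 call was lost without knockdown replicate 2 (adjusted p = 0.0581) or control replicate 2 (0.0601). SPOP, a ubiquitin ligase adaptor for PD-L1, fell by 0.20 ± 0.049 (adjusted p = 0.0377), with 3 of its 4 probe sets falling. Without control replicate 3 SPOP still passed (adjusted p = 0.0492), and without the others it did not, with adjusted p = 0.0931, 0.117 and 0.0598 without knockdown replicates 1, 2 and 3, and 0.0884 and 0.110 without control replicates 1 and 2. The protein disulfide isomerase PDIA6, which helps MICA to be shed, had a log2 change of 0.03 ± 0.036 (adjusted p = 0.702).

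Measured transcriptional regulators with a known link to 1 or more of the 10 genes numbered 23. Of these, 8 rose and 4 fell (median 0.01), against 5.77% and 6.83% of all genes. This list, too, was written with earlier results in view. IRF9, a partner of STAT proteins in interferon signalling, had the largest change, 1.58 ± 0.049 log2 units (SE, limma adjusted p = 2.92e-06), and IRF1, which binds interferon response elements, rose by 0.73 ± 0.042. JUN, a subunit of AP-1, rose by 1.30 ± 0.083. The NF-kB subunits RELB, NFKB2 and NFKB1 rose by 0.77, 0.58 and 0.32, with NFKB2 the most variable of them, at 6.33, 6.52 and 6.76 log2 units on knockdown and 6.17, 5.98 and 5.72 on control arrays. The NFKB2 call was lost without knockdown replicate 2 (adjusted p = 0.0836), knockdown replicate 3 (0.0773), control replicate 2 (0.0898) or control replicate 3 (0.0840). RELA, a further NF-kB subunit chosen after its values were seen, was at 0.0033 ± 0.041 (SE, adjusted p = 0.973), with overlapping groups. Chosen after their values were seen, IRF2 and MYC rose by 0.29 and 0.18, and the 4 that fell were EZH2, E2F1, CHEK1 and ATR, by 0.29, 0.22, 0.19 and 0.18. HIF1A did not pass at its brightest probe set (0.07 ± 0.053 SE, adjusted p = 0.466), but 5 of its 8 probe sets rose, by up to 0.35. Whether any regulator acts on the 10 genes in these cells was not tested.

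The receptors listed for these ligands are those known from lymphocytes and phagocytes. Of 9 measured, 0 rose and 0 fell by the limma adjusted p, against 5.77% and 6.83% of all genes. KLRK1 and PDCD1, the genes of NKG2D and PD-1, were not among those measured. CD226, TIGIT and CD96 were near background, each dimmer on control arrays than 5 Tag probe sets, and SIRPG was dimmer than 4. HCST, ITGAL and ITGAM were each dimmer than 1. A lack of calls says little about receptors this dim. ITGB2 and SIRPA were brighter there than all 17 Tag probe sets. SIRPA, the receptor of CD47, had 6.34, 6.43 and 6.43 log2 units on knockdown and 6.62, 6.53 and 6.53 on control arrays, with a log2 change of -0.16 ± 0.046 SE (adjusted p = 0.0615).

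The calls of the 10 genes depended on what the arrays were scaled to. Scaled to the bacterial hybridization controls, which shifts every gene by -0.28, MICA was at -0.14 without passing, ICAM1 was the 1 member that rose (0.29, adjusted p = 0.00480), ULBP2 was at 0.13 without passing, MICB, CD274 and CD47 turned to -0.08, -0.02 and -0.07, and PVR, ULBP1, ULBP3 and CD83 fell by 0.48, 0.30, 0.28 and 0.24. Scaled to the poly-A controls, added to RNA before labelling and higher by 0.14 on the knockdown arrays, ULBP2 and ICAM1 rose, by 0.27 and 0.43, and PVR fell by 0.34. Of the 16 alternatives run, ICAM1 was past the threshold in 16, ULBP2 and CD47 in 13 each, MICB in 10, PVR in 5, and, of the 15 that measured each, CD274 in 4 and MICA in 3, and ULBP1, ULBP3 and CD83 in 1 of 15, as falls scaled to hybridization controls.

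**Figure D4:**
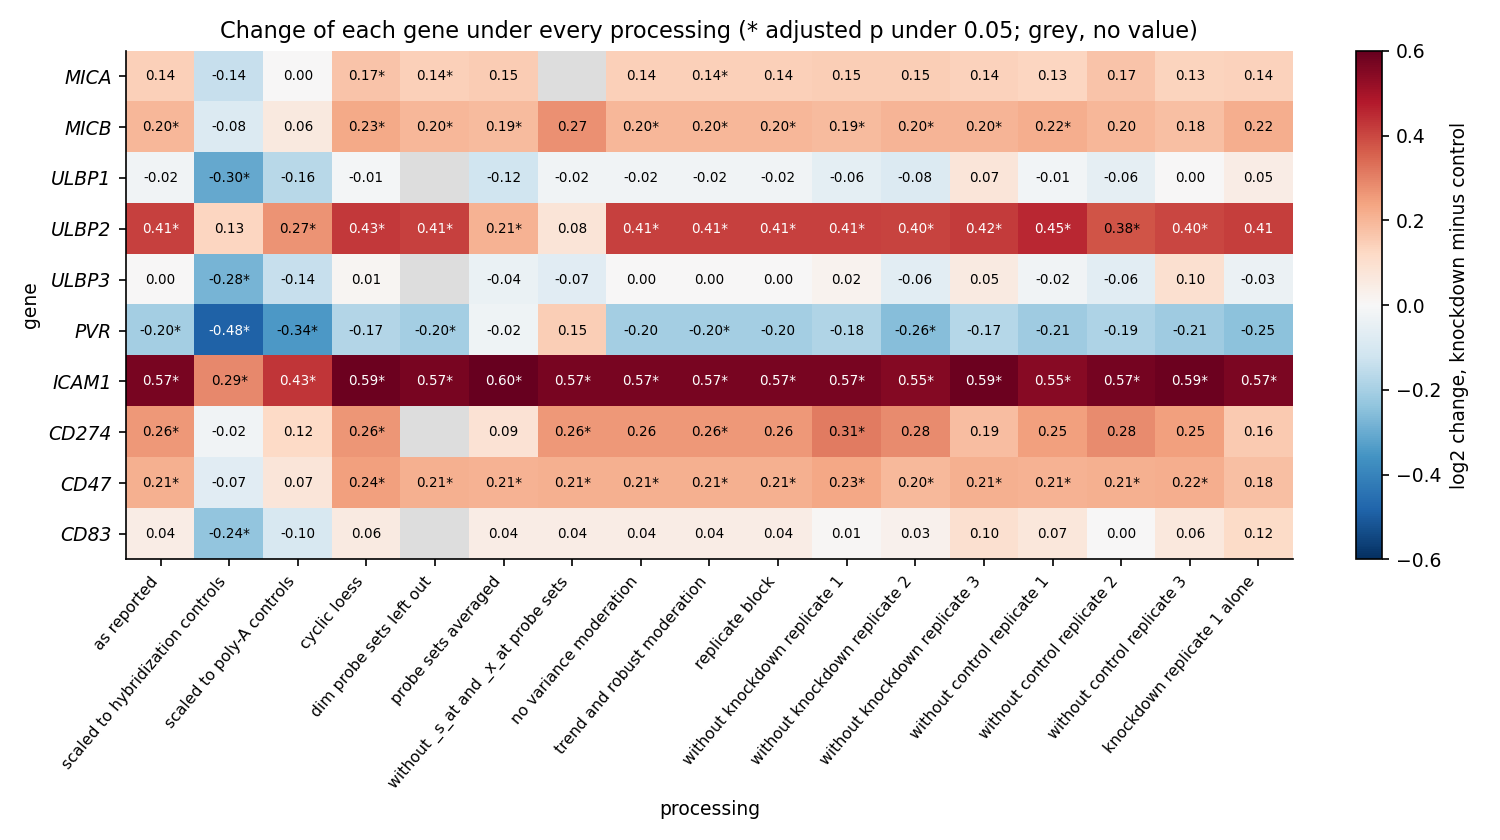
Log2 change, knockdown minus control (colour and printed value), of each of the 10 genes (rows) as reported and under the 16 alternatives (columns). Asterisks mark a limma adjusted p under 0.05 and grey cells had no value; ICAM1 keeps its asterisk in each column, from 0.29 to 0.60, while PVR turns to 0.15 without _s_at and _x_at probe sets.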

How the data were processed

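The table deposited by the authors holds log2 signals of 49372 probe sets on 6 arrays, made with RMA per the submitters' processing notes. The sources used here do not give the software, its version or a genome build. RMA corrects background, equalizes the arrays' distributions by quantiles and summarizes probes, so a shift shared by most genes is removed and changes near background are understated. Array medians were 5.10 to 5.11, and no further normalization was done. No detection calls were used.

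Of the probe sets, 44988 had 1 gene symbol in the platform annotation, updated by gene identifier to RefSeq symbols. The probe set with the highest mean over the 6 arrays stood for a gene, giving 18132 genes. Groups were compared with limma 3.58.1 (R 4.3.3; lmFit, eBayes, 2-sided, no covariate), with Benjamini-Hochberg adjustment over these genes and, for probe sets, over the 49293 that are not controls. Errors are standard errors of the fit. The number of arrays limits the precision. The pipeline was tested on simulated data. Promoters are from RefSeq (GRCh38.p14) and were aligned with Biopython 1.88. Figures were drawn with matplotlib 3.10.9.

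The members and lists were chosen with earlier results of these data known. Named were the 10 members with all their probe sets, LINC00525, CDKN1A, at most 6 called genes of each list by size of change and, of up to 3 others by mean signal, the brightest, and for the largest rise and fall the 3 best correlated genes. Any other gene was named after its values were seen. Some genes of the lists are not analysed here. Arrays of 1 group correlated at 0.9986 to 0.9989 and no pair was a copy (at most 4.81% identical values). Alternatives changed the scaling, normalization, dim filter, probe set rule, variance moderation, block and arrays.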

Additional observations from a re-analysis of the deposited data

Results flagged for a closer look

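Beside the 31 probe sets, 5 others are annotated to 2 or 3 genes of the ULBP and RAET1 family at the same time. They were left out of the comparisons because they cannot be assigned to 1 gene, and were looked at because they carry signal for ULBP2. Of these 5, 3 rose past the threshold over all probe sets. The probe set annotated to ULBP2 and RAET1L had 5.99, 5.95 and 5.93 log2 units on knockdown arrays and 5.63, 5.64 and 5.69 on control arrays, a change of 0.30 ± 0.042 (SE, limma adjusted p = 0.00456). Both of the others are annotated to ULBP2, RAET1L and RAET1G: 1 had 6.20, 6.40 and 6.33 on knockdown and 5.94, 6.03 and 5.99 on control arrays, a change of 0.32 ± 0.059 (limma adjusted p = 0.0141), and 1 had 6.38, 6.47 and 6.5 on knockdown and 6.11, 6.17 and 6.17 on control arrays, a change of 0.30 ± 0.048 (adjusted p = 0.00820). In all 3 the groups did not overlap. The remaining 2 did not pass: 0.15 ± 0.069 (adjusted p = 0.240) for another probe set of those 3 genes, and 0.01 ± 0.053 (adjusted p = 0.957) for 1 annotated to ULBP3, ULBP1 and RAET1K. Which gene of the family carries the rise was not tested.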

How the results depend on the processing

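As reported, 5 members rose and 1 fell, 1046 and 1239 of all genes rose and fell, as did 13 and 8 genes of the 6 lists, and 7 and 0 of the 31 probe sets. Of 16 alternatives, knockdown replicate 1 alone, whose genotype entry names LINC00525, was added after seeing the data. Over 1229 values recomputed, 950 kept their side of the threshold or stayed near their size (in 43 of these a value past the threshold in neither setting changed sign), 97 lost it, 47 gained it, 121 moved and 14 reversed. Scaled to hybridization controls, 1 member rose and 4 fell, 232 and 15080 of all genes, 6 and 55 of the lists and 2 and 13 probe sets. There MICB (-0.081), ULBP3 (-0.28), CD274 (-0.021), CD47 (-0.068), CD83 (-0.24), RAET1G (-0.23), ADAM17 (-0.031), PDIA6 (-0.25), HIF1A (-0.21), the dimmer _x_at probe set of MICB (-0.091), the _at probe set of ULBP2 (-0.20) and the PVR probe set reported at 0.03 (-0.25), and the members' median (-0.11) reversed. This shift follows from the scaling itself. Scaled to poly-A controls, 2 members, 497 of all genes and 4 probe sets rose, and 8397 of all genes, 32 of the lists and 5 probe sets fell. With cyclic loess 0 members fell. With dim probe sets left out, 1 probe set fell, and ULBP1, ULBP3, CD274, CD83 and LINC00525 had no value. With probe sets averaged 0 members fell. Without _s_at and _x_at probe sets 3 members rose, 0 fell, PVR reversed to 0.15 (limma adjusted p = 0.0728), and MICA had no value. Without variance moderation 611 and 703 of all genes rose and fell, 4 probe sets rose, 0 members fell, and LINC00525 at -0.30 lost its call (adjusted p = 0.151). With trend and robust moderation 11 probe sets rose and 1 fell, and 2049 of all genes fell. With knockdown replicate 1 alone, its spread taken from the controls, 1 member, 202 of all genes, 7 of the lists and 1 probe set rose, 0 members, 54 of all genes and 0 of the lists fell, and LINC00525 was at -0.19. Leaving out 1 array at a time gave 3 to 5 members, 632 to 834 of all genes, 10 to 14 of the lists and 3 to 5 probe sets that rose, 0 to 1 members, 472 to 792 of all genes, 2 to 6 of the lists and 0 to 1 probe sets that fell, and LINC00525 at -0.36 to -0.25. For all other changes the cause was not tested.

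Replicate numbers are not stated to pair arrays, so the arrays were compared unpaired. Deviations of arrays with the same replicate number correlated at 0.0924, 0.0582 and -0.00953. With the replicate block, MICB, ULBP2, ICAM1 and CD47 rose (4 members) and 0 fell, PVR at -0.20 (limma adjusted p = 0.0508) and CD274 at 0.26 (adjusted p = 0.0665) missed the threshold, and 747 of all genes and 5 of the lists fell. Signals of ULBP1, ULBP3, CD274 and CD83 lay among the Tag control probe sets, where RMA compresses differences, and 3 arrays a group limit the precision.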
